A study of Homo sapiens with 6 samples.

Results

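ABC transporter genes were taken as the protein-coding rows of the gene count table whose symbol is ABCA to ABCG followed by a number, and 45 of the 58735 genes in the table met that rule. They comprise 12 genes of subfamily A, 9 of B, 11 of C, 4 of D, 1 of E, 3 of F and 5 of G. Of the 45, 28 had enough counts to be tested, and 17 did not. The peptide transporters TAP1 and TAP2 and the chloride channel CFTR are ABC proteins too, but their symbols fall outside the rule, and TAP1 and TAP2 are given below only as neighbours in function. The genes were read in 6 RNA sequencing libraries of MDA-MB-231, an established triple-negative breast cancer cell line. The overexpression group has 3 libraries, from cells given a DNAJC12 vector by transfection (DNAJC12v in the labels); DNAJC12 encodes a J-domain co-chaperone. The 3 libraries of the control group came from the same line transfected with empty vector. No time after transfection, vector promoter or selection is named in the labels, and nothing there says that the libraries of a group were separate cultures, so the spread behind the p-values may be a technical one.

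ABC proteins couple the binding and hydrolysis of ATP in paired nucleotide-binding domains to the movement of a substrate across a membrane. Exporters of subfamilies B, C and G carry drugs, drug conjugates, bile acids, heme and sterols, subfamily A mostly moves phospholipids and cholesterol, and subfamily D brings fatty acyl groups and cobalamin across peroxisomal and lysosomal membranes. Proteins of subfamilies E and F have the ATP-binding domains but no membrane-spanning part, and they act on ribosomes. In breast cancer the family is best known for multidrug efflux by ABCB1, ABCC1 and ABCG2, the last of which is also called breast cancer resistance protein.

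Library totals ran from 17967283 to 18887497 counts, and the ABC genes held between 0.0942% and 0.103% of them. DNAJC12 itself was read 492 to 523 times per overexpression library, and 1 time in all in the empty vector libraries. Of 6 genes fixed as abundant in this line, SPARC was low, at 0.184 to 0.560 FPKM over the 6 libraries, whereas VIM averaged 177 FPKM with DNAJC12 and 172 with empty vector. Of the 6, 2 were higher and 1 lower with DNAJC12 at an unadjusted edgeR p under 0.05 (7.25% and 6.86% of all tested genes). None passed the edgeR test after adjustment (1.25% of all genes), and the DESeq2 Wald test called 1 higher (1.64%). FPKM is a count divided by gene length and library depth, so it allows levels of different genes to be set side by side. Of 6 genes fixed as low or absent, ESR1 and PGR were near 0 (at most 3 counts in a library), but KRT19 was abundant, at 186 FPKM with DNAJC12 and 315 with empty vector. Together the 6 genes ran from 140 to 281 FPKM with DNAJC12 and from 291 to 367 with empty vector. Of the 6, 4 had enough counts to be tested. None of these passed after adjustment, and 1 was lower at an unadjusted edgeR p under 0.05 (6.86% of all tested genes). Summed leukocyte markers (5 genes, with CD3E at 0 counts) stayed between 0.00688 and 0.144 FPKM over the 6 libraries. Endothelial markers (4 genes, with CDH5 and VWF at 4 counts or fewer in each library) summed to 0.815 to 1.36 FPKM with DNAJC12 and 2.34 to 3.36 with empty vector, most of it PECAM1. PECAM1 fell, at 5.51, 4.43 and 3.81 CPM (counts scaled to library size, with TMM factors) in overexpression replicates 1 to 3 against 22.7, 15.1 and 17.0 CPM, a log2 fold change of -1.99 (edgeR adjusted p = 0.0125). That call was lost without overexpression replicate 3 (0.133), empty vector replicate 1 (0.101) or empty vector replicate 3 (0.0883). The part of these markers in the levels of ABC genes was not tested. Fibroblast markers (4 genes) summed to 0.659 to 0.928 FPKM with DNAJC12 and 0.637 to 1.13 with empty vector. Hepatocyte markers (5 genes, with APOA2, TTR and ABCB11 at 0 counts) summed to 10.3 to 16.7 and 12.3 to 17.1 FPKM, nearly all of it SERPINA1, and luminal markers (4 genes) to 378 to 772 and 399 to 462 FPKM.

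By level, most message of the 45 genes came from the ribosome-associated members. TAP1 and TAP2, which are outside the rule and not in these shares, averaged 42.4 and 8.41 FPKM over the 6 libraries. Subfamily F held 48.8% of the summed FPKM of the 45 genes, subfamily C 16.4%, A 12.2%, D 11.3%, B 6.08%, E 4.56% and G 0.690%. ABCF1 alone averaged 45.8 FPKM over the 6 libraries, followed by ABCF3 at 19.3, ABCC1 at 9.86, ABCD4 at 9.50 and ABCA2 at 9.15. The last 3 of these lay within each other's spread. Of the 45 genes, 20 averaged above 1 FPKM, all of them among those tested. The 17 genes not tested never exceeded 0.0685 FPKM in a library. Among them 4 (ABCB11, ABCC8, ABCD2 and ABCG5) had no count at all, and ABCC9, which regulates potassium channels, had the most, 50 counts over all libraries.

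**Figure D1:**
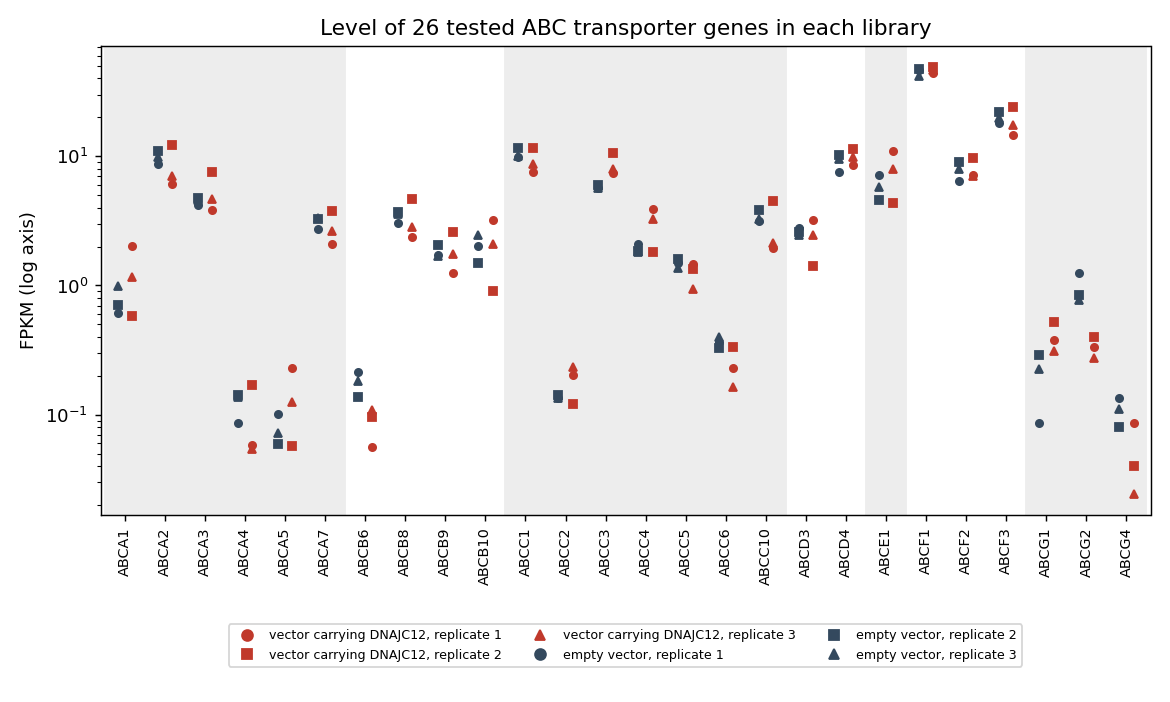
FPKM (log axis) of 26 of the 28 tested ABC genes in each of the 6 libraries, ordered by subfamily (alternating shading); colour marks the group and shape the replicate number. ABCF1 is highest, averaging 45.8 FPKM, and ABCG2 shows all 3 overexpression libraries below all 3 empty vector libraries.

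ABCB1, the P-glycoprotein drug exporter, was essentially unread, with 1 count in overexpression replicate 1 and none in the other 5 libraries. A count of 0 allows a level of up to 3 counts, which equals 0.150 to 0.190 CPM in these libraries. These limits cover counting error only. ABCC1, which exports glutathione conjugates and drugs, was the most abundant drug exporter. It stood at 57.6, 88.0 and 66.5 CPM in overexpression replicates 1 to 3 and at 75.1, 88.1 and 76.7 CPM in empty vector replicates 1 to 3. The groups overlapped, and the log2 fold change of overexpression against empty vector was -0.18 with a 95% interval of -0.67 to 0.31.

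No ABC gene passed the test between the groups at an adjusted p of 0.05. Over all 14520 genes tested, 181 passed (1.25%), 85 higher (0.585%) and 96 lower (0.661%) with DNAJC12. The test was the quasi-likelihood test of edgeR, with p-values adjusted over all tested genes by the Benjamini-Hochberg procedure. Adjusted p-values of the ABC genes ran from 0.0584 to 0.964. Without adjustment 4 of 28 had a p under 0.05, 2 with a higher and 2 with a lower mean, where 14.1% of all tested genes did, 7.25% higher and 6.86% lower. The DESeq2 Wald test called 1 of 30 ABC genes (3.33%), ABCG2, which was lower. It called 3.22% of all genes in either direction, 1.64% higher and 1.58% lower. Limma on log2 FPKM called 0 ABC genes in each of its 3 forms. Of all genes, limma called 1.24% in both forms with a filter and 0.0439% in the form without. Values did not overlap between the groups in 4 ABC genes, against 20.1% of all tested genes, 2 of them higher (9.26% of all genes) and 2 lower (10.8%). The median log2 fold change was 0.04 for the ABC genes and 0.05 for all tested genes, with 15 ABC genes above 0 and 13 below. Apart from the 1 lower call by DESeq2, the family's share in each of these counts was near or below that of all genes.

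**Figure D2:**
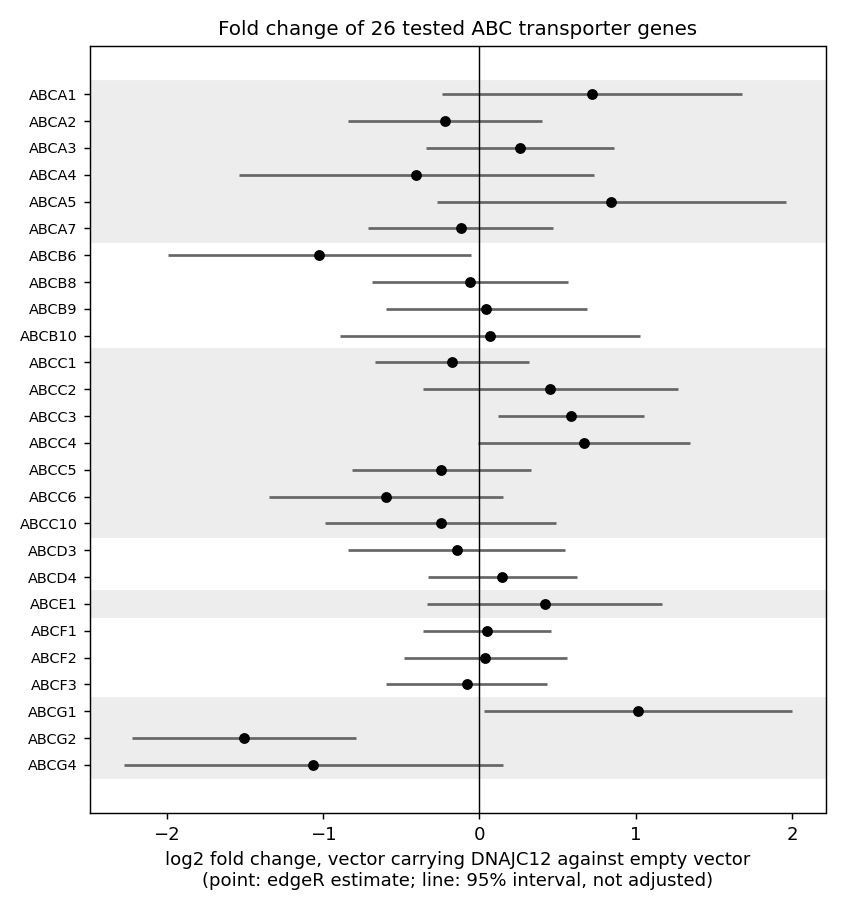
Log2 fold change of overexpression against empty vector for 26 of the 28 tested ABC genes; points are edgeR estimates and lines unadjusted 95% intervals. ABCG2, at -1.50, lies farthest from 0, and the intervals of ABCG2, ABCB6, ABCC3 and ABCG1 leave out 0.

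ABCG2, a half-transporter that pumps drugs, urate and porphyrins out of cells, came nearest to a call. The gene (ENSG00000118777) lies on the minus strand of chromosome 4, from 88090264 to 88231322 in GRCh38. Its counts were 34, 32 and 27 in overexpression replicates 1 to 3 and 119, 77 and 73 in empty vector replicates 1 to 3. Scaled to depth this was 1.70, 2.02 and 1.41 CPM with DNAJC12 and 6.39, 4.28 and 3.89 CPM with empty vector. Every overexpression library lay below every empty vector library, and the highest of the former was under the lowest of the latter. The means were 1.71 ± 0.306 and 4.85 ± 1.34 CPM (SD, n = 3 each), and the log2 fold change was -1.50 ± 0.32 SE, with a 95% interval of -2.22 to -0.79. Its adjusted p in the edgeR test was 0.0584, just outside the threshold. Over 17 alternative ways of processing, ABCG2 kept its direction in 17 and passed in 7. It passed by the DESeq2 Wald test (adjusted p = 0.00794), without a low-count filter (0.00552) and after a correction for GC content (0.00917), and with overexpression replicate 2 left out (0.00561), but with any 1 of the other 5 libraries left out it did not. The range over all 17 was 0.000124 to 0.341. At a mean level of 0.646 FPKM, ABCG2 was nonetheless the most abundant of subfamily G.

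Stretches upstream of start sites are shown for ABCG2 and for 2 other members described below, the conjugate exporter ABCC4 and the porphyrin transporter ABCB6. The levels of these members differed between the groups by an unadjusted test or in some of the alternatives. They are a choice: ABCA1, ABCA2, ABCA5, ABCC10 and ABCE1 also passed in some alternatives and have windows, but are not shown. The table of RefSeq windows (GRCh38.p14, 250 bases before to 50 after a start) held 35 of the 45 ABC genes and 22 of the 28 tested, and it held none for ABCA4, ABCC1, ABCC3 and ABCG1 among others. Each stretch below gives the 250 bases before 1 start on the gene's own strand, which is the minus strand in all of them. Capitals mark matches, on either strand, to the antioxidant response core TGACNNNGC, the ATF4 composite core TGATGNAA, the GC box GGGCGG or the E-box CACGTG.
ABCG2 chr4:88158910-88159159 : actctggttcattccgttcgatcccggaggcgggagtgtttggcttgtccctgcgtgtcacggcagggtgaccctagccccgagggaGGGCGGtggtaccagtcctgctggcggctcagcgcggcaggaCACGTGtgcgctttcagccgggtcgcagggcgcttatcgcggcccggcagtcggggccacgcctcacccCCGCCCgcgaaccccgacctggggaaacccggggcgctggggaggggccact
ABCC4 chr13:95301452-95301701 : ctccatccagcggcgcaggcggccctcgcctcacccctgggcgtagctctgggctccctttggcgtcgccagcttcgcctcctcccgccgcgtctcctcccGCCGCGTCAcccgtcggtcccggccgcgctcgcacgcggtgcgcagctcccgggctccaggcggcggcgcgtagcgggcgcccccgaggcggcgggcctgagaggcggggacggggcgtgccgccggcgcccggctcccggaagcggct
ABCB6 chr2:219218959-219219208 : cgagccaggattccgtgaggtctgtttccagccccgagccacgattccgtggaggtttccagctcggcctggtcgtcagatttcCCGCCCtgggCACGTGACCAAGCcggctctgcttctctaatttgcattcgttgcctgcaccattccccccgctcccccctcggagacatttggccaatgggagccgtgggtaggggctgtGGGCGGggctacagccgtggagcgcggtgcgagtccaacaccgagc
The ABCG2 stretch held 2 GC boxes and 1 E-box, and 71.2% of its bases were G or C. It is 1 of 5 upstream stretches listed for ABCG2 and was chosen after their letters were seen: 3 of the 5 held none of the motifs, the other 2 overlap each other, and the 5 ranged from 40.0 to 73.6% G or C. ABCC4 and ABCB6 have 1 each. The ABCC4 stretch held 1 antioxidant response core and was 80.4% G or C. The ABCB6 stretch held 1 antioxidant response core, 2 GC boxes and 1 E-box, the E-box overlapping the antioxidant core. Among the stretches not shown, that of ABCE1 held none of the motifs, and that of ABCA1 held 3 GC boxes and 1 E-box. Over whole windows of 300 bases, the antioxidant response core was found in 13.3% of all 35116 RefSeq windows and in 12 of the 53 windows of ABC genes, the ATF4 core in 3.62% and 3, the GC box in 45% and 25, and the E-box in 7.26% and 9. The antioxidant response and ATF4 cores found in ABCG2 windows lie in or reach into the bases after a start, which are not shown. Windows of 1 gene can overlap, and these matches are a description of letters only.

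Exporters of subfamily C, which move organic anions and glutathione, glucuronide and sulfate conjugates, were split. ABCC3, an exporter of glucuronide conjugates and bile acids (ENSG00000108846, chromosome 17, 50634777 to 50692252 in GRCh38), was at 71.9, 102 and 77.3 CPM in overexpression replicates 1 to 3 and at 55.1, 57.7 and 54.6 CPM with empty vector. All 3 overexpression libraries were above the narrow band of the controls. Its log2 fold change was 0.59 ± 0.21 SE, with a 95% interval of 0.12 to 1.05 (edgeR adjusted p = 0.236). ABCC4, an exporter of cyclic nucleotides and prostanoids and added after its values were seen, was at 34.4, 15.7 and 28.9 CPM with DNAJC12 and at 18.2, 15.9 and 15.7 CPM with empty vector. Here overexpression replicate 2 lay within the controls and the other 2 above them, and the log2 fold change of 0.67 ± 0.30 SE was not called (edgeR adjusted p = 0.366). Without that library ABCC4 passed, with a log2 fold change of 0.93 and an edgeR adjusted p of 0.00544. ABCC3 did not pass with any 1 library left out. The other 4 tested members besides ABCC1, namely ABCC2, ABCC5, ABCC6 and ABCC10, had log2 fold changes of 0.45, -0.24, -0.60 and -0.25. ABCC6 has near-identical pseudogene copies, read at 47 and 78 counts over all libraries, so its own counts are uncertain. ABCC10 overlaps DLK2 on the opposite strand, which had 2375 counts against 2766 for ABCC10. Without knowledge of the strand setting, reads in the shared stretch cannot be told apart. The length of that stretch was not measured, so the part of the counts concerned is not known.

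**Figure D3:**
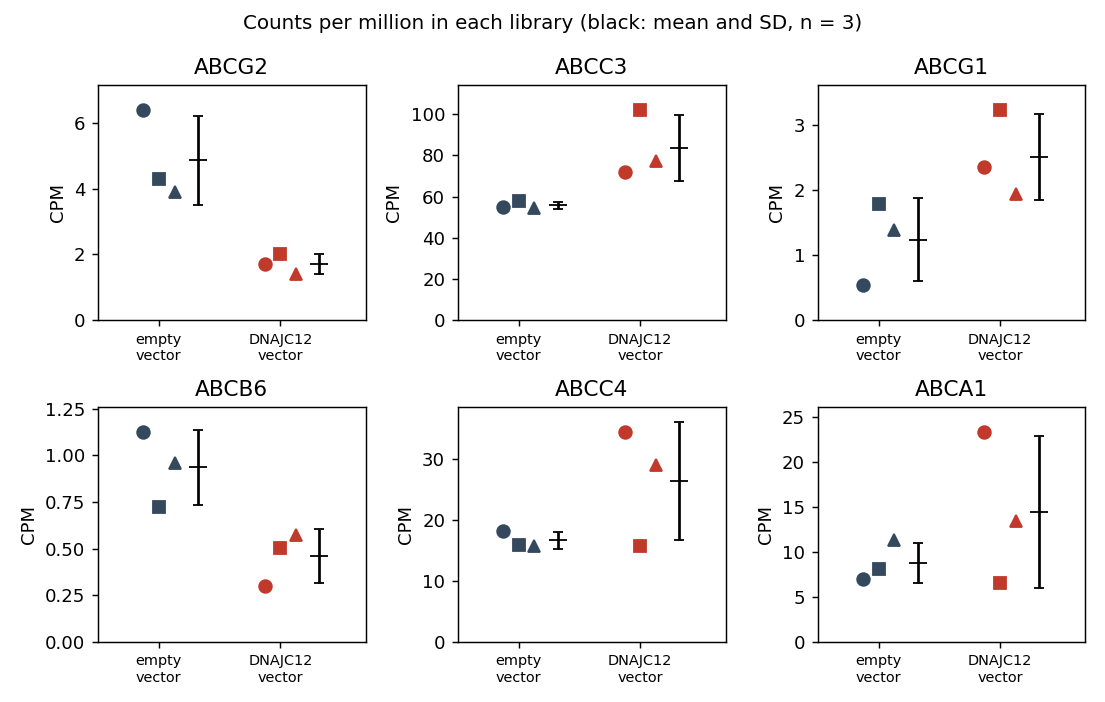
CPM of ABCG2, ABCC3, ABCG1, ABCB6, ABCC4 and ABCA1 in each library (shape: replicate 1 circle, 2 square, 3 triangle; black: mean and SD, n = 3). The groups do not overlap in the first 4, while overexpression replicate 2 falls among the controls or below them in ABCC4 and ABCA1.

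No lipid exporter was called. ABCA1 hands cholesterol and phospholipid to apolipoprotein A1, and its gene (ENSG00000165029) lies on chromosome 9, from 104781002 to 104928237 in GRCh38. It was at 23.4, 6.58 and 13.4 CPM with DNAJC12 and at 7.03, 8.07 and 11.3 CPM with empty vector, so replicate 2 was the lowest of all 6 libraries and replicate 1 the highest. Its log2 fold change was 0.72 ± 0.43 SE (edgeR adjusted p = 0.501), which became 1.07 and passed (0.0180) without overexpression replicate 2 and was 0.18 without replicate 1. ABCG1, which loads sterols onto existing lipoprotein particles, was at 2.35, 3.22 and 1.93 CPM with DNAJC12 and at 0.537, 1.78 and 1.39 CPM with empty vector. The groups did not overlap, although the lowest library with DNAJC12 was only slightly above the highest control, and a control library of 10 counts widened the spread. The log2 fold change was 1.01 ± 0.44 SE, with an edgeR adjusted p of 0.341. With 1 library left out it ran from 0.65, without that control library (empty vector replicate 1), to 1.34.

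The other tested members of subfamily A had overlapping groups. ABCA2, a lipid transporter of lysosomes and the most abundant of subfamily A, was at 70.9, 142 and 81.6 CPM with DNAJC12 and at 101, 127 and 114 CPM with empty vector. Replicate 2 of the overexpression group was the highest library and the other 2 of its group the lowest, and the log2 fold change was -0.22 with a 95% interval of -0.84 to 0.40. Without that library it was -0.58 and passed, at an edgeR adjusted p of 0.0189. For ABCA3, the phospholipid transporter of lamellar bodies, the log2 fold change was 0.26 ± 0.27 SE, and -0.06 without overexpression replicate 2. ABCA7 had -0.12, and ABCA4 and ABCA5, both near 0.1 FPKM, had -0.40 and 0.84. ABCA5 too passed without that library, narrowly, at an edgeR adjusted p of 0.0497 and a log2 fold change of 1.20. ABCG4, a brain sterol exporter read at 3 to 16 counts per library, had -1.06 ± 0.54 SE.

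The tested members of subfamily B act on intracellular membranes, mostly mitochondrial or lysosomal, and none was called. ABCB6, a porphyrin transporter (ENSG00000115657, chromosome 2, 219209766 to 219219017 in GRCh38), was at 0.301, 0.506 and 0.575 CPM with DNAJC12 and at 1.13, 0.723 and 0.959 CPM with empty vector. The groups did not overlap, but these are 6, 8 and 11 counts against 21, 13 and 18, and the log2 fold change of -1.02 ± 0.43 SE had an edgeR adjusted p of 0.331. ABCB8, of the inner mitochondrial membrane and the most abundant of subfamily B, was at 22.4, 44.1 and 26.7 CPM with DNAJC12 and at 28.9, 34.5 and 33.7 CPM with empty vector. Its groups overlapped, with a log2 fold change of -0.06 and a 95% interval of -0.69 to 0.56. ABCB9, a lysosomal peptide transporter, had a log2 fold change of 0.04, and ABCB10, of the inner mitochondrial membrane, had 0.07 ± 0.43 SE. ABCB10 changed sign in 8 of 17 alternatives and ABCB9 in 6. Their relatives in the endoplasmic reticulum, TAP1 and TAP2, which deliver peptides to MHC class I, did not pass either. TAP1 was at 159, 293 and 189 CPM with DNAJC12 and at 175, 218 and 197 CPM with empty vector. TAP2 was at 59.1, 57.3 and 61.8 CPM against 53.0, 44.8 and 49.3 CPM, without overlap, for a log2 fold change of 0.28 ± 0.19 SE.

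No member of the peroxisomal or ribosome-associated subfamilies was called. ABCD4, which takes part in the exit of cobalamin from lysosomes, was at 75.8, 101 and 88.5 CPM with DNAJC12 and at 66.5, 89.4 and 83.2 CPM with empty vector. The groups overlapped, and its log2 fold change was 0.15 with a 95% interval of -0.33 to 0.62. ABCD3, an importer of branched fatty acyl groups into peroxisomes, had -0.14. ABCF1, which binds the initiation factor eIF2 (ENSG00000204574, chromosome 6, 30571376 to 30597179 in GRCh38), was at 202, 221 and 215 CPM with DNAJC12 and at 211, 215 and 190 CPM with empty vector. The groups overlapped, and the 95% interval of its log2 fold change, -0.36 to 0.46, was the narrowest of the family. ABCF2 and ABCF3 had 0.04 and -0.08. ABCE1, which splits ribosomes after termination, was at 70.2, 27.4 and 50.5 CPM with DNAJC12 and at 45.6, 28.9 and 36.7 CPM with empty vector. Replicate 2 was the lowest library within each group, and the log2 fold change was 0.42 ± 0.34 SE. Without overexpression replicate 2 it was 0.70 and passed, at an edgeR adjusted p of 0.0315. ABCE1 overlaps OTUD4 and ANAPC10 on the opposite strand, so some of its reads may be theirs.

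Overexpression replicate 2 stood apart from the other libraries of its group in most ABC genes, in a way that followed base composition. It was the highest of the 6 libraries in 14 and the lowest in 6 of the 28 tested genes. Against the mean of replicates 1 and 3, it was lower in 8 of the 10 ABC genes whose transcripts had under 50% G and C. Over those 10 genes the gap ran from -1.51 to 0.36 on the log2 CPM scale. It was higher in 17 of the 18 genes above that share, with a median gap of 0.58. Across the 28 genes, Pearson's r between GC content and this gap was 0.80 and Spearman's rho 0.77. Empty vector replicate 2 leaned the same way, with r = 0.49 and rho = 0.48. Genes are not independent replicates and share the libraries, so these are descriptions. Averaged over all counted transcripts, GC content was 54.0% in overexpression replicate 2 and 51.4 to 53.4% in the other 5 libraries. ABCG2, with 42.1% GC, did not follow the pattern in the overexpression group, where replicate 2 was the highest (gap 0.36). Neither did ABCC5 (49.3% GC, gap 0.17) or ABCG4 (57.6% GC, gap -0.21). In the empty vector group the gap of ABCG2 was -0.21. The part of base composition in the fold changes of single genes was not tested beyond the corrected fit.

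**Figure D4:**
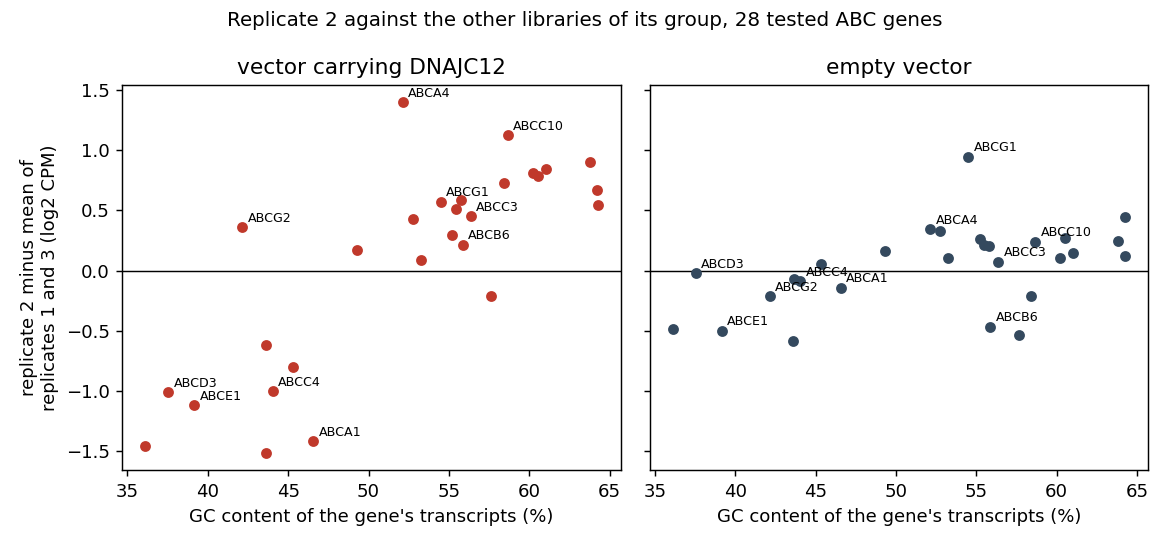
Gap of replicate 2 to the mean of replicates 1 and 3 of its group (log2 CPM) against the GC content of each gene's transcripts (%), for the 28 tested ABC genes; left, vector carrying DNAJC12, right, empty vector. In the left panel 8 of 10 genes under 50% GC lie below 0 and 17 of 18 others above it.

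The number of ABC genes called moved with that library, as it did for genes at large. Without overexpression replicate 2, 7 of 28 passed (25.0%), against 22.5% of all genes tested there. ABCA1, ABCA5, ABCC4 and ABCE1 were higher (4, against 12.1% of all genes), and ABCA2, ABCC10 and ABCG2 lower (3, against 10.4%). Without both libraries numbered 2, 6 passed (21.4%, against 18.7% of all genes), the same genes without ABCA5, 3 higher (10.3% of all genes) and 3 lower (8.41%). After the correction for GC content 3 passed, ABCC3 and ABCC4 higher and ABCG2 lower (10.7%, against 20.0% of all genes, 10.2% higher and 9.77% lower). ABCG2 was in all 3 sets, with log2 fold changes of -1.64, -1.73 and -1.60.

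**Figure D5:**
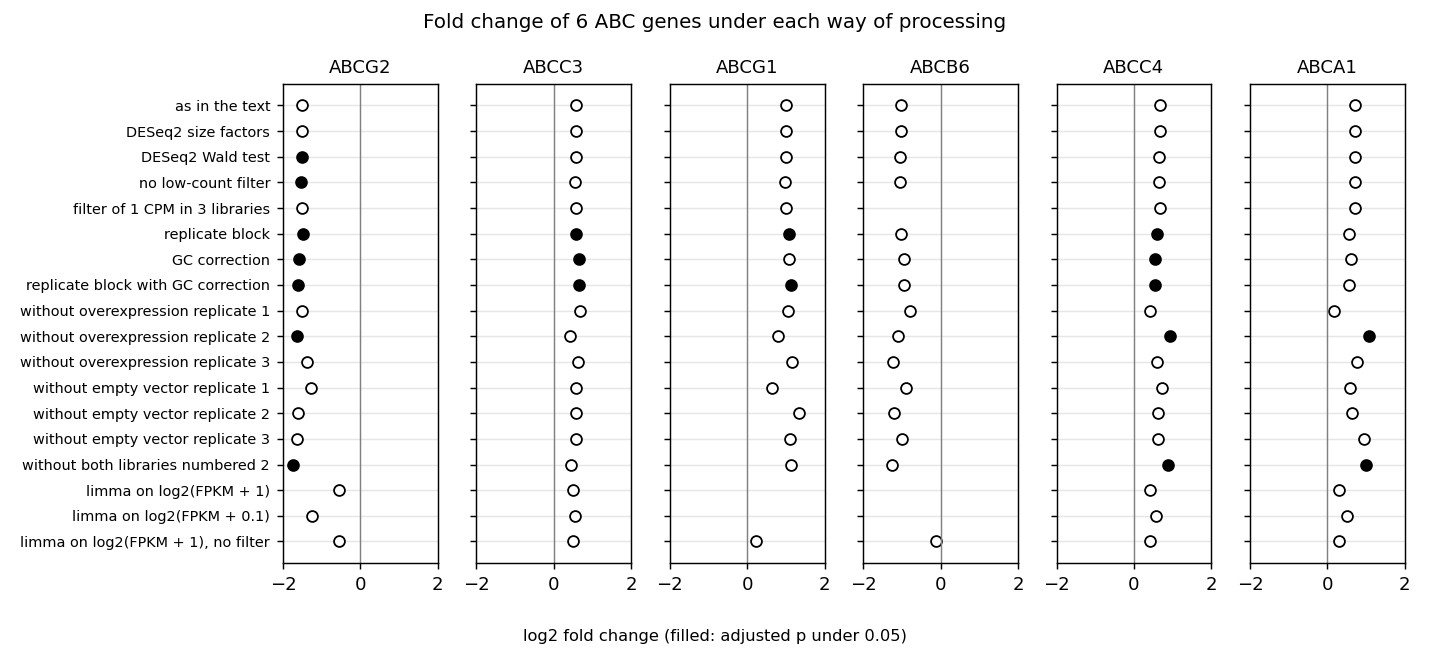
Log2 fold change of 6 ABC genes as given in the text and under each of 17 alternatives (a missing point: not tested there); filled points have an adjusted p under 0.05. ABCG2 lies below 0 throughout and is filled in 7 alternatives, and ABCC4 is above 0 throughout and filled in 5.

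Partners of the ABC proteins were followed in 8 lists, and of their tested genes LAMP3 alone passed the edgeR test. It encodes a lysosomal membrane protein found in lamellar bodies with ABCA3, and it was at 6.56, 4.93 and 9.19 CPM with DNAJC12 and at 0.966, 1.50 and 1.23 CPM with empty vector. Each overexpression library was far above each control, for a log2 fold change of 2.48 ± 0.35 SE with an edgeR adjusted p of 0.0117. The call was lost when overexpression replicate 3 was left out (0.0875), and likewise for empty vector replicate 1 (0.108), 2 (0.0592) or 3 (0.0955), while the fold change stayed between 2.22 and 2.67 with 1 library left out. In that list of ceramide, lamellar body and phospholipid genes, 1 of 12 tested rose in edgeR (0.585% of all genes) and none fell (0.661%). An unadjusted edgeR p under 0.05 was found for 1 gene that rose (7.25% of all genes) and none that fell (6.86%). The DESeq2 Wald test called LAMP3 alone in this list, as higher (1.64% of all genes). The median log2 fold change was 0.08, and the surfactant genes SFTPB and SFTPC were at or near 0. ABCA3 itself, as given above, did not pass. After the GC correction 2 genes of this list were called higher and none lower, and without both libraries numbered 2 there were 4 higher and none lower. The shares of all genes called in these fits were 10.2% higher and 9.77% lower after the GC correction, and 10.3% higher and 8.41% lower without the libraries numbered 2.

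Among sterol genes around ABCA1 and ABCG1, none of 18 tested genes passed. A fold change above 0 was found in 16, against 7972 of all 14520 tested genes, and the median was 0.29 against 0.05. At an unadjusted p under 0.05 there were 6 higher and none lower (7.25% and 6.86% of all genes). The DESeq2 Wald test called 3 higher, SREBF2, SREBF1 and NPC1 (1.64% of all genes). ABCA1 and ABCG1 are themselves in the list. The most abundant, NPC2, which releases lipoprotein cholesterol from lysosomes, had a log2 fold change of 0.54. After the GC correction 7 were called higher and none lower (10.2% and 9.77% of all genes), and without both libraries numbered 2 there were 5 higher and 1 lower (10.3% and 8.41%).

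Regulators and linkers of drug exporters had 0 of 10 tested genes called by edgeR or DESeq2, 2 higher at an unadjusted p under 0.05 (7.25% of all genes), 9 above 0 and a median of 0.25. Of all 14520 tested genes 7972 were above 0, with a median of 0.05. YBX1 and moesin (MSN), the 2 most abundant, had 0.17 and 0.02, and NR1I2, the xenobiotic receptor that drives ABCB1 in liver, had no count. With the GC correction 4 were called higher (10.2% of all genes), and without both libraries numbered 2 also 4 (10.3%). Genes of glutathione synthesis and conjugation, which supply substrates to subfamily C, had 0 of 18 called by edgeR or DESeq2, 0 at an unadjusted p under 0.05 and a median of 0.10, with GSTP1 at 0.20 and GSTO1 at 0.12. With the GC correction 2 were called higher (10.2% of all genes), and without both libraries numbered 2 there were 1 higher (10.3%) and 1 lower (8.41%).

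Of the heme and iron-sulfur genes, partners of the mitochondrial ABCB members, none of 24 tested passed in edgeR. A fold change above 0 was found in 5, against 7972 of all 14520 tested genes, and the median was -0.19. Without adjustment, 1 higher and 1 lower gene had a p under 0.05 (7.25% and 6.86% of all genes), and the DESeq2 Wald test called 1 higher, the mitochondrial chaperone HSPA9 (1.64%). CIAO2B and SLC25A39, the 2 most abundant, had -0.03 and 0.02. In the fit with GC correction 1 was called higher and 2 lower (10.2% and 9.77% of all genes), and without both libraries numbered 2 there were 1 higher and 4 lower (10.3% and 8.41%). Peroxisomal and cobalamin partners of subfamily D had 0 of 21 called by edgeR or DESeq2, 1 higher at an unadjusted p under 0.05 (7.25% of all genes) and a median of 0.03, with MMADHC at 0.32 and CRAT at -0.07. In the same 2 fits, 1 was called higher and 2 lower with the GC correction, and 2 higher and 1 lower without the libraries numbered 2.

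Ribosome recycling and eIF2 genes, partners of ABCE1 and the ABCF proteins, had 0 of 20 called by edgeR, 2 higher at an unadjusted p under 0.05 (7.25% of all genes) and a median of 0.15. EIF1, which guards start codon choice, had 0.75 ± 0.19 SE (edgeR adjusted p = 0.102). It was the 1 gene of the list that the DESeq2 Wald test called, as higher (1.64% of all genes). The eIF2 subunit EIF2S2 had 0.60. Correction for GC gave 4 called higher and 1 lower (10.2% and 9.77% of all genes), and leaving out both libraries numbered 2 gave 7 and 1 (10.3% and 8.41%). Peptide loading genes around TAP had 0 of 17 called by edgeR or DESeq2, a median of 0.22 and, without adjustment, 1 gene each way with a p under 0.05 (7.25% and 6.86% of all genes). The chaperone CALR had -0.53. In this list 5 were called higher and 1 lower with the GC correction, and 2 higher and 1 lower without both libraries numbered 2, against the same shares of all genes.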

How the data were processed

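RNA was measured in 6 libraries of MDA-MB-231 cells, 3 per group as the labels title them. The authors deposited the count of reads per gene and the FPKM of each gene, and the submitters' processing notes name HISAT2 2.0.5 and hg19, while the gene coordinates in the deposited tables are those of GRCh38. How reads were counted, with strand or without, is not given here. The deposited FPKM equal the counts over gene length and a library depth, which was 0.854 to 1.10 times the total count.

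Counts were fitted with edgeR 4.0.16 in R 4.3.3 (TMM, filterByExpr with minimum count 10 and minimum total 15, robust quasi-likelihood). Adjustment was by Benjamini-Hochberg over 14520 genes at a threshold of 0.05. Genes not tested held 0.129% of counts. The common biological coefficient of variation came to 26.6%. CPM are counts over TMM-scaled library sizes. SE is the log2 fold change over the root of the F statistic. Log2 CPM used a prior count of 2. Alternatives used DESeq2 1.42.0 and limma 3.58.1 on log2(FPKM + 1) or log2(FPKM + 0.1), with a filter of 0.5 FPKM in 3 libraries or none. GC content came from GENCODE 29 transcripts, and its correction was a loess trend with span 0.3. Steps were tested on simulated data.

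Members and lists were chosen with earlier results of these data known. Values in every library are given for members past the threshold, those with an unadjusted p under 0.05 and no overlap, the most abundant of each subfamily, and ABCB1, ABCC1, ABCG2, ABCA1, ABCG1, TAP1 and TAP2. List genes are named if called, otherwise the 2 most abundant. Some genes that these rules name are not reported here, though counts over the family and lists include them. Other genes named, such as ABCC4, NR1I2 and those called by DESeq2 alone, were added after their values were seen. Figures were made with matplotlib 3.10.9.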

Additional observations from a re-analysis of the deposited data

How the results depend on the processing

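The 17 alternatives were chosen with earlier results of these data known. ABC genes called higher, 0 as reported, were 3 with the replicate block, 2 after GC correction, 3 with both, 3 without both libraries numbered 2, and 0 to 4 without 1 library. Those called lower, also 0, were 1 with the DESeq2 Wald test, no filter, the replicate block, GC correction or both, 3 without both libraries numbered 2, and 0 to 3 without 1 library. In these fits 28 ABC genes were tested, except 30 with DESeq2 and 41 with no filter. In either direction, 2.44% of ABC genes were called with no filter, against 2.52% of all genes. The shares were 3.33% and 3.22% with DESeq2, 14.3% and 13.3% with the block, and 10.7% and 20.0% after GC correction. With both they were 14.3% and 22.9%, and without both libraries numbered 2, 21.4% and 18.7%. Without overexpression replicate 2 they were 25.0% and 22.5%, and leaving out any other library called no ABC gene (0.168 to 1.68% of all genes). Over all genes, 85 were called higher and 96 lower as reported. These became 268 and 259 with DESeq2, 366 and 322 with no filter, 1011 and 926 with the replicate block, 1483 and 1419 after GC correction, 1694 and 1631 with both, 1514 and 1240 without both libraries numbered 2, and 8 and 4 by limma with no filter on FPKM. Without 1 library they ran from 15 to 1806 and from 6 to 1560, the highest without overexpression replicate 2. DESeq2 size factors, the 1 CPM filter and limma with a filter kept both counts of all genes within 1.5 times.

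Same-numbered libraries deviated together with correlations of 0.45, 0.58 and 0.03, and libraries numbered 3 matched best with number 1 of the other group, so the labels' numbers were not taken as pairs. With the replicate block ABCC3, ABCC4, ABCG1 and ABCG2 were called (14.3% of the tested ABC genes, against 13.3% of all genes). The same 4 were called with the block and GC correction (14.3%, against 22.9%).

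Signs changed only in genes that no fit called. With 1 library left out, fold changes (log2) lay between -0.0612 and 0.44 for ABCA3, -0.37 to 0.0437 for ABCA7, -0.40 to 0.12 for ABCB8, -0.26 to 0.25 for ABCB9, -0.40 to 0.42 for ABCB10, -0.44 to 0.12 for ABCD3, -0.0041 to 0.0778 for ABCF1, -0.12 to 0.13 for ABCF2 and -0.30 to 0.0609 for ABCF3. Without both libraries numbered 2 they were -0.0356 for ABCA3, -0.17 for ABCB9, 0.10 for ABCD3 and -0.0136 for ABCF2. ABCB9 was at -0.0060 with the replicate block and -0.0132 by limma with pseudocount 0.1. ABCB10 was at -0.0612 with the block, -0.10 after GC correction, -0.14 with both, and -0.0248, -0.0831 and -0.0248 by limma with pseudocounts 1, 0.1 and 1 without filter. The causes were not tested. Few counts limit the precision for ABCB6 and ABCG4, among others.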
